A study of Caenorhabditis elegans with 2 samples.

Results

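Nuclear hormone receptor genes of Caenorhabditis elegans were examined for ChIP-seq summits of a tagged forkhead factor, FKH-10. The family was taken by name from the gene annotation: protein-coding genes called nhr followed by a number, which gave 269 genes, and 5 receptor genes with names of their own (unc-55, fax-1, daf-12, sex-1 and odr-7). These 274 genes were set against the other 19699 of the 19973 nuclear protein-coding genes.

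The study immunoprecipitated eGFP-FKH-10 from chromatin of whole worms at the late embryonic stage, mixed in sex. It has 1 group of 2 biological replicates from strain OP337, with the allele unc119(ed3) and the insertion wgIs377, which carries fkh-10 joined to the tags TY1, EGFP and FLAG and a copy of unc119; the number of the strain and that of the insertion differ. Both replicates carry the unc119(ed3) allele and the same integrated transgene, and no untagged strain was analysed here. Whole embryos mix all cell types, and peak positions cannot show in which of them a site was occupied.

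Nuclear hormone receptors are transcription factors that bind DNA through a zinc-finger domain and, in many members, a small lipophilic ligand through a second domain. Nematodes carry a greatly expanded family, most of it derived from a relative of HNF4, beside a small set with clear counterparts in insects and vertebrates. In the worm, receptors of this kind time moulting and dauer entry, adjust fat and sterol metabolism to diet, and specify some neurons.

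The deposited peaks are in 4 lists on the ce11 build. The pooled list, called on both replicates together, held 7443 peaks. Its 7420 nuclear peaks had a signal (peak height on the authors' scale) of 16.2 to 138. The thresholded list is the part of it that passed a reproducibility threshold, 378 peaks. Its 358 nuclear peaks had a signal of 36.6 or more. The replicate lists held 27900 peaks for replicate 1 (median nuclear signal 9.62) and 30000 for replicate 2 (median nuclear signal 6.80). Mitochondrial peaks were left out of all signals, ranks and counts below. The pooled list and both replicate lists are deposited as peaks and background, before any reproducibility threshold. A promoter summit below is a summit from 1000 bp upstream to 500 bp downstream of the 5′ end of a gene. Read depth is unknown, and signals are compared within a list only.

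The DNA under the strongest receptor summits is shown first, since these are the 6 receptor genes with the highest pooled promoter summits. Each sequence is 201 bp of ce11 centred on a pooled summit and is written on the strand of the receptor gene, which is plus for nhr-255, nhr-48, nhr-47 and nhr-28 and minus for nhr-14 and nhr-142. The windows are chrX:15741945-15742145 for nhr-255, chrX:8476433-8476633 for nhr-14, chrX:15707578-15707778 for nhr-48, chrV:5505126-5505326 for nhr-47, chrV:5790985-5791185 for nhr-142 and chrX:16354898-16355098 for nhr-28. Capitals mark GGTTCGA, the letters of the internal B box of tRNA genes, together with its overlapping match on the other strand in nhr-255, and, in nhr-47 and nhr-142, the word GCGCCAG as well as the word CGCGTCA.
nhr-255: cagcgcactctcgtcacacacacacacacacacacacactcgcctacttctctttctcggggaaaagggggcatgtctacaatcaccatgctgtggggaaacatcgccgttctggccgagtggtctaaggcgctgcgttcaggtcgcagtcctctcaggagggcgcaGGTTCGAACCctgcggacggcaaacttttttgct
nhr-14: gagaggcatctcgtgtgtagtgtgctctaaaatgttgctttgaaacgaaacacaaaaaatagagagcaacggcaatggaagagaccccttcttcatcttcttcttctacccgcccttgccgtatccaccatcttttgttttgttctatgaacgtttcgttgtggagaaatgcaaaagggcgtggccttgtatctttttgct
nhr-48: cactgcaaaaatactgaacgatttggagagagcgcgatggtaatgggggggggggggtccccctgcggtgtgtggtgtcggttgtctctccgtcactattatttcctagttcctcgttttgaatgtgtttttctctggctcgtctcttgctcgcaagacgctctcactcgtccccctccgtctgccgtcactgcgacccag
nhr-47: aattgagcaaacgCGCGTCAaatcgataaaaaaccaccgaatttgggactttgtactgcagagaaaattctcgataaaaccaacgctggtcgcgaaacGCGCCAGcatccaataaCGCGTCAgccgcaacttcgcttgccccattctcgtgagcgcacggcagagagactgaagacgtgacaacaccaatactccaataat
nhr-142: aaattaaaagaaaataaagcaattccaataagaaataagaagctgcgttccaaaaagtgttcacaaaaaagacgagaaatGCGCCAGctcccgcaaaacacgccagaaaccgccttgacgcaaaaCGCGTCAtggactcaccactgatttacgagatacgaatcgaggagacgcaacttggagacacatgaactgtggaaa
nhr-28: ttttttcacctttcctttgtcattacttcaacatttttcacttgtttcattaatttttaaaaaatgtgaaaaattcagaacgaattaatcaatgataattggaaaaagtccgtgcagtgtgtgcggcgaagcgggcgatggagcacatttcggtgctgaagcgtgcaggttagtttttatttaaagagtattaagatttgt

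None of these 6 windows holds a forkhead core, searched on both strands as the word GTAAACA, the word GTAAATA, the word ATAAACA and the word ATAAATA. Over all 33 pooled promoter summits of the receptor genes, 3 windows of 201 bp held such a core (9.09%): those of nhr-105 at 707 bp upstream, of daf-12 and of nhr-35. The core was in 18.6% of the windows at promoter summits of other genes and in 15.9% of all 7420 nuclear pooled windows. In windows of the same length centred 500 bp upstream of every gene, without regard to peaks, it was in 21.2% of receptor genes and 21.9% of other genes. The share at receptor summits was the lowest of these, on a count of 3. Base composition differed among the sets: the median GC content was 35.8% at receptor summits and 38.8% at those of other genes. In the windows 500 bp upstream it was 32.3% for receptor genes and 33.8% for other genes. Whether base composition bears on the shares was not tested.

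GGTTCGA was in 1 of the 33 windows (3.03%), that of nhr-255, and in 2.66% of those of other genes. The word GCGCCAG and the word CGCGTCA, on either strand, were noticed in the sequences of nhr-47 and nhr-142 and then counted. Both words were present in 10 of all 7420 pooled windows (0.135%), and 2 of those 10 are the nhr-47 and nhr-142 windows. Among windows at promoter summits of other genes the share was 0.436%, 10 of 2296, and at receptor summits 2 of 33 (6.06%), by which the words were chosen. The nhr-47 and nhr-142 summits each lie in the promoter window of a neighbour too, dnj-19 for nhr-47 and F44E7.9 for nhr-142. Both are therefore among the 10 of other genes as well, and the 2 shares are not from separate sets.

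**Figure D1:**
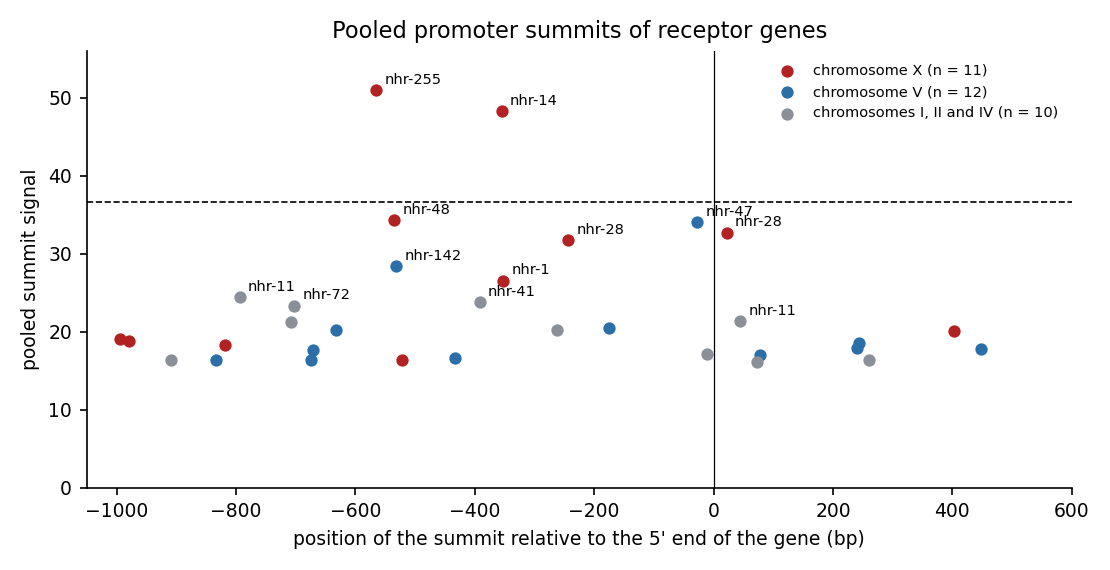
Each point is 1 of the 33 pooled promoter summits of receptor genes, by its distance from the 5′ end (bp, negative upstream) and its signal; the dashed line is the lowest signal of the thresholded list, 36.6. Only nhr-255 (51.0) and nhr-14 (48.2) lie above the line, and nhr-48 (34.3) and nhr-47 (34.0) are the next below it.

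Only 2 receptor genes, both on chromosome X, had a promoter summit in the thresholded list. That is 0.730% of the 274 (95% Wilson interval 0.200 to 2.62, for counting error only) where 0.976% of all protein-coding genes had one, 1.1% of those on X. None of the receptor genes on chromosome V had one, where 0.521% of all genes of V did. In the pooled list 30 receptor genes had at least 1 promoter summit (10.9%, interval 7.78 to 15.2), against 13.3% of all genes. The share of the family with a summit was thus close to that of all genes and its intervals include the share of all genes in both lists. The intervals treat genes as independent, though many receptor genes lie side by side. They may therefore be too narrow, and they are no test of similarity.

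The replicates gave the same picture. In replicate 1 a promoter summit was present at 117 receptor genes (42.7%, interval 37.0 to 48.6), against 39.6% of all genes. In replicate 2 it was present at 106 (38.7%, interval 33.1 to 44.6), against 40% of all genes. The family lay above the background in one replicate and below it in the other. Both intervals include the background, with the same limit on what they show. With the demand that summits of the 2 replicates lie within 200 bp of each other, 28 receptor genes passed (10.2%, interval 7.17 to 14.4), against 11.4% of all genes.

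Heights were close to those at other genes. The median of the highest promoter summit per gene was 18.9 for receptor genes and 20.2 for other genes in the pooled list. It was 10.19 and 10.11 in replicate 1, and 7.06 and 7.22 in replicate 2. The deposited −log10 q of the 33 pooled summits ran from 0.0181 to 2.25 with a median of 0.151, where 0 stands for a q of 1. A q of 0.05 or less, a threshold chosen after the values were seen, was reached by 6 summits of 5 receptor genes (nhr-255, nhr-14, nhr-48, nhr-47 and nhr-28), 1.82% of the family, where 1.65% of all genes had such a summit. The pooled and replicate lists are permissive, and a summit in them is a ranked position.

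Many promoter summits were in 1 replicate list only. Of the 274 genes, 61 had a summit in both replicate lists, 56 in replicate 1 alone, 45 in replicate 2 alone and 112 in neither. These are 22.3%, 20.4%, 16.4% and 40.9% of the family, close to the 19.9%, 19.7%, 20.1% and 40.3% of other genes. A pooled summit was present at 25 of the 61, at 2 of the 56, at 3 of the 45 and at none of the 112. For other genes it was at 1922 of 3919, 431 of 3880, 237 of 3961 and 30 of 7939, in the same order. In all, 162 receptor genes (59.1%) had a promoter summit in at least 1 replicate, against 59.7% of all genes.

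**Figure D2:**
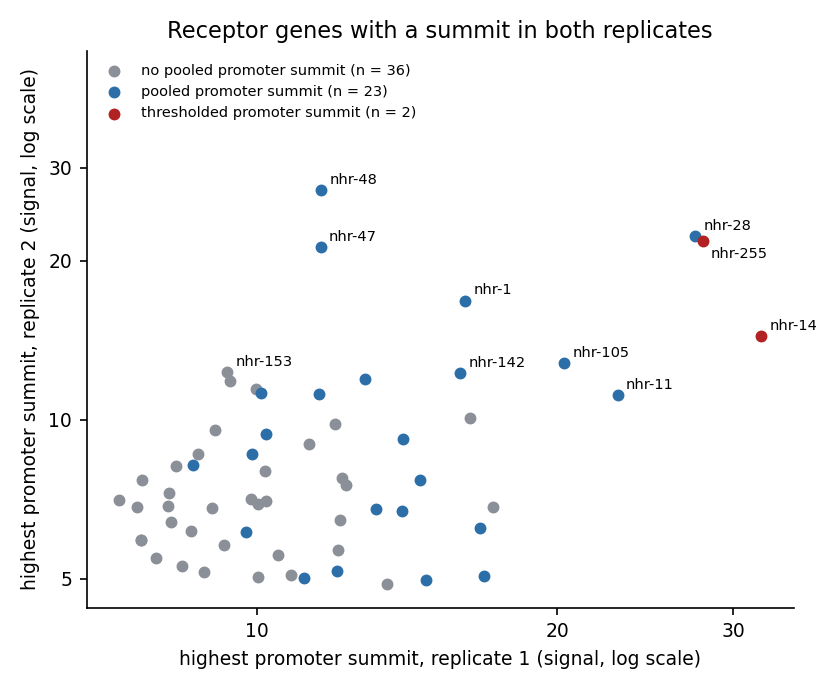
Each point is 1 of the 61 receptor genes with a promoter summit in both replicates, by its highest promoter summit in replicate 1 (x axis) and replicate 2 (y axis), both log scales in signal; colour gives the combined lists that hold a promoter summit. The points of nhr-14, nhr-255 and nhr-28 are far to the right, at 27.5 or more in replicate 1, while nhr-48 and nhr-47 are high in replicate 2 alone.

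The highest receptor summit belonged to nhr-255 (WBGene00014068, X, 15742610 to 15744298, plus strand). Its pooled signal was 51.0, rank 121 in the list, at position 15742045, which is 565 bp upstream of the 5′ end and intergenic. The replicates gave 27.95 (rank 155) and 21.8 (rank 247), with summits 13 bp apart. The same place holds a tRNA-Leu gene, ZK678.t1 (15742050 to 15742133, plus strand), which starts just past the summit, and a non-coding RNA gene, ZK678.11. Whether the signal belongs to the receptor or to the RNA genes cannot be told apart from peak positions.

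The second was nhr-14 (WBGene00003613, X, 8473722 to 8476178, minus strand), an HNF4-like receptor known for its part in intestinal iron uptake and defence. Its pooled signal was 48.2, rank 148, at 8476533, 355 bp upstream. Replicate 1 gave 32.0 (rank 86), the highest receptor promoter summit of that list, and replicate 2 gave 14.4 (rank 1028), with the 2 summits 65 bp apart. The summit lies inside a non-coding RNA gene, T01B10.13 (8476379 to 8476728, plus strand).

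nhr-48, a relative of daf-12, and nhr-47 came just below the threshold. The pooled summit of nhr-48 (WBGene00003638, X) had a signal of 34.3, rank 447, 535 bp upstream. Replicate 2 gave 27.3 there (rank 121), the highest receptor promoter summit of its list, while the promoter summit of replicate 1 had 11.6 (rank 7300) and lay 224 bp from the pooled one, so the replicates did not share a position within 200 bp. For nhr-47 (WBGene00003637, V) the pooled signal was 34.0, rank 460, 27 bp upstream, with a non-coding RNA gene, C24G6.10, within 100 bp. Replicate 1 gave 11.6 and replicate 2 gave 21.2 (rank 260), only 2 bp apart. Both genes were thus higher in the list of replicate 2 than in that of replicate 1, where their signals were still above the median of 9.62.

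The next receptor genes by pooled signal were nhr-28, nhr-142, nhr-1, nhr-11, nhr-41 and nhr-72. nhr-28 (X) had 2 summits, 32.7 at 22 bp downstream in its first exon and 31.7 at 243 bp upstream, with highest replicate signals of 27.5 and 22.3. nhr-142 (V) had 28.4 at 532 bp upstream, with 15.97 in replicate 1 and 12.2 in replicate 2, and the 5′ end of F44E7.9 was closer to it, at 145 bp. nhr-1 (X) had 26.6 at 352 bp upstream, with 16.8 in replicate 2 beside it, while the highest promoter summit of replicate 1, 16.2, was 252 bp away. All 3 genes were above the median of both replicate lists, but nhr-1 did not have summits of both within 200 bp of each other. nhr-11 (IV) had 24.5 at 794 bp upstream and 21.4 at 44 bp downstream. nhr-41 (IV), an ortholog of insect DHR78, had 23.8 at 392 bp upstream, with 14.01 in replicate 1 and 9.21 in replicate 2. nhr-72 (II) had 23.3 at 702 bp upstream, with 13.2 and 6.78, so its replicate 2 value was at the median of that list.

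Of the 33 pooled summits, 24 were upstream of the 5′ end (72.7%, against 77.6% of the 2777 of other genes), and the median position was 392 bp upstream, against 248 bp upstream for other genes. More than 500 bp upstream lay 15 of them. They fell in intergenic sequence 24 times, in exons 7 times and in introns 2 times. The 5′ end of the receptor was the nearest one for 31, 5 lay in the window of another gene as well, and 7 had an annotated RNA gene within 100 bp. The RNA genes beside summits of nhr-105, nhr-37 and nhr-35 are piRNA genes. A replicate 1 summit was within 200 bp of 28 of them, a replicate 2 summit within 200 bp of 23, and both within 200 bp of 18. Apart from the share upstream and the median position, these counts were not made for other genes. They therefore show nothing particular to receptor summits.

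The window decided a few cases. Just inside its upstream end were nhr-3 at 994 bp (pooled signal 19.0) and fax-1 at 979 bp (18.8), and just outside were nhr-211 at 1013 bp (22.6) and nhr-21 at 1081 bp (19.4). At the downstream end nhr-133 was inside at 448 bp (17.8), and nhr-288 was outside at 547 bp (21.9).

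Chromosome X stood apart within the family; it was picked out after the values were seen. The family is concentrated on chromosome V, with 167 genes, and chromosome X holds 27. On X, 10 of 27 receptor genes had a pooled promoter summit (37.0%), against 14.8% of all genes of that chromosome. The replicates gave 16 of 27 (59.3%, against 40.9%) and 17 of 27 (63.0%, against 42%), and 6 of 27 (22.2%, against 12.1%) had summits of both replicates within 200 bp. The excess on X was in all of these lists, but in the pooled and replicate 1 lists much of it lay more than 500 bp upstream: with a window of 500 bp to either side, the pooled count was 4 of 27 (14.8%, other genes of X 10.4%) and the replicate 1 count 8 of 27 (29.6%, other genes of X 28.5%), while replicate 2 kept 13 of 27 (48.1%, other genes of X 32.0%). The 10 genes were nhr-255, nhr-14, nhr-48, nhr-28, nhr-1, daf-12, nhr-3, fax-1, nhr-35 and nhr-32.

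The other chromosomes showed no such excess in the pooled list, apart from II with its 3 of 15 genes. Without X, 20 of 247 receptor genes (8.10%) had a pooled promoter summit, against 13.1% of other genes. On V it was 12 of 167 (7.19%), against 9.51% of all genes of V. In the replicates the genes of V lay on the other side of the background, with 70 (41.9%, against 34%) in replicate 1 and 62 (37.1%, against 33.9%) in replicate 2. On IV the pooled count was 4 of 33 (12.12%, against 12.72% of other genes there), and on II 3 of 15 (20%, against 12.03%). It was 1 of 24 on chromosome I (4.17%, against 16.99%) and 0 of 8 on III (against 17.21%). In the pooled list the family thus lay below the other genes on I and III and above them on II. In the replicates, genes of IV lay above the other genes there, at 16 of 33 (48.5%, against 39.3%) and 13 of 33 (39.4%, against 36.3%). Those of I and II lay below in both replicates, and those of III above in replicate 1 and below in replicate 2. All these counts are too few for a firm comparison.

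**Figure D3:**
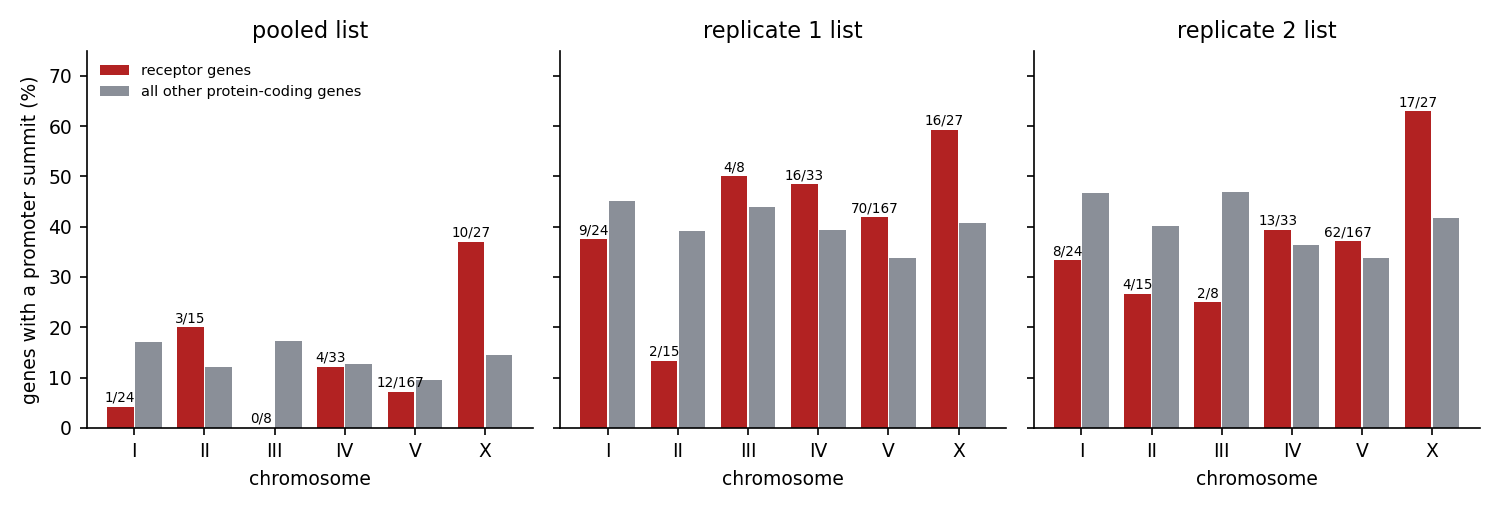
Bars give the percentage of receptor genes (red, with counts above) and of all other protein-coding genes (grey) with a promoter summit, by chromosome, in the pooled list and in each replicate list. On X the red bar is the taller one in all 3 panels (37.0%, 59.3% and 63.0%), and on V it is shorter in the pooled panel and taller in the replicate panels.

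By role, receptors listed here as having counterparts outside nematodes had summits more often than the rest. The list was drawn up by gene name, with earlier results of these data known and no comparison of proteins. It includes HNF4-like receptors such as nhr-14 and nhr-35. Of the 20 listed genes, 7 had a pooled promoter summit (35%, against 13.3% of all genes). A summit was present in replicate 1 at 15 (75%, against 39.6%) and in replicate 2 at 13 (65%, against 40%). Summits of both replicates within 200 bp were present at 7 of the 20 (35%, against 11.4%): nhr-23, unc-55, nhr-41, fax-1, nhr-35, nhr-14 and daf-12. Among the 254 other receptor genes the counts were 23 (9.06%), 102 (40.2%) and 93 (36.6%), and 21 (8.27%) for both replicates. This list and chromosome X overlap: the pooled summits were at 5 of its 8 genes on X and 2 of its 12 genes elsewhere, and for the remaining receptors at 5 of 19 on X and 18 elsewhere (7.66% of those). In replicate 1, 10 of the 12 conserved genes off X had a summit, and in replicate 2, 6 of the 12.

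Apart from nhr-14, nhr-48 and nhr-41, described above, the conserved genes with a pooled promoter summit lay around the median signal of that list, 19.2. nhr-23, the ROR ortholog required for moulting, had a pooled signal of 17.1 at 11 bp upstream, with 9.74 in replicate 1 and 6.12 in replicate 2. daf-12, the receptor for dafachronic acids that governs dauer entry, had 20.1 in an intron 402 bp downstream, with 14.8 and 4.97, the latter near the lowest signal of its list, 4.85. fax-1, the PNR ortholog of interneurons, had 18.8, with 9.89 and 8.62. nhr-35, an HNF4-like receptor, had 18.3, with 14.5 in replicate 1 and a matching 5.23 in replicate 2. These 4 genes had a promoter summit in every list but the thresholded one.

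Moulting and developmental receptors were 9 genes, all but nhr-74 also on the conserved list, so their counts largely repeat that list. The role lists here and below were also chosen with earlier results of these data known. In the pooled list there were 3 (nhr-23, nhr-41 and daf-12, which is 33.3%, against 13.3% of all genes). In replicate 1 there were 5 (55.6%, against 39.6%), and in replicate 2 there were 7 (77.8%, against 40%). nhr-25, the FTZ-F1 ortholog of the epidermis, had a promoter summit in replicate 2 alone (7.75), as had nhr-85, related to Rev-Erb (7.63), and nhr-91, related to GCNF (7.72). nhr-67, the tailless ortholog, had one in each replicate (8.13 and 6.86) but none in the pooled list, and nhr-6, the NR4A ortholog, had none in any list. The replicate 2 values of nhr-25, nhr-85, nhr-91 and nhr-67 lie a little above the median of that list, 6.80. That of nhr-41 was higher (9.21), and those of nhr-23 (6.12) and daf-12 (4.97) were below the median.

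Metabolic and stress receptors were 13 genes, of which nhr-8 and nhr-49 are on the conserved list too. Only nhr-28 had a pooled promoter summit (7.69%, against 13.3% of all genes), 7 had one in replicate 1 (53.8%, against 39.6%) and 4 in replicate 2 (30.8%, against 40%). The list lay on both sides of the background. nhr-49, which switches fat metabolism in fasting, had 12.5 in replicate 1 and none in replicate 2, and its partner nhr-80 had 12.2 and none. nhr-8, a receptor of sterol and xenobiotic responses, had 14.7 in replicate 1 and none in replicate 2. nhr-62 and nhr-114 had one in replicate 2 alone (7.34 and 7.71). nhr-10 and nhr-68, which act in propionate breakdown, had none in any list, nor had nhr-31 and nhr-79. nhr-13 had one in each replicate (7.27 and 7.04), and summits of both replicates within 200 bp were at nhr-28 alone in this list.

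Neuronal and sex determination receptors were 6 genes, all but odr-7 also on the conserved list, and nhr-67 is a moulting and developmental receptor too. Their counts are thus not separate from those above. Of the 6, fax-1 was in the pooled list (16.7%, against 13.3% of all genes), 5 in replicate 1 (83.3%, against 39.6%) and 3 in replicate 2 (50%, against 40%). unc-55, the COUP-TF ortholog of motor neurons, had 7.93 in replicate 1 and 5.48 in replicate 2, 125 bp apart, with no pooled promoter summit. odr-7, which sets the identity of an olfactory neuron, had 9.16 in replicate 1 and none in replicate 2. sex-1, an element by which embryos count their X chromosomes, had no promoter summit in any of the 4 lists.

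The remaining conserved genes had no pooled promoter summit. nhr-64 (8.14), nhr-111 (12.2) and nhr-239 (9.12) had a promoter summit in replicate 1 alone, and nhr-69 had one in each replicate, 8.30 and 8.16, that did not come within 200 bp of each other.

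Genes that make the hormones of these receptors, regulate them or respond to them were a further list of 20, of which 19 were found by symbol. This list too was chosen with earlier results of these data known, so its shares are descriptions only. None had a thresholded promoter summit (against 0.976% of all genes), and 7 had a pooled one (36.8%, against 13.3%). In replicate 1 there was one at 11 (57.9%, against 39.6%), and in replicate 2 at 10 (52.6%, against 40%). The 7 were cbp-1 (32.7), the p300 coactivator, din-1 (23.9), the corepressor of DAF-12, strm-1 (22.3), a sterol methyltransferase, acdh-1 (20.7), an acyl-CoA dehydrogenase, hsd-1 (19.7), a steroid dehydrogenase, hbl-1 (17.2), a hunchback-like factor, and daf-9 (16.2), the cytochrome P450 of dafachronic acid synthesis. Summits of both replicates within 200 bp were at 4 of the 19 (21.1%, against 11.4% of all genes), namely hsd-1, strm-1, cbp-1 and hbl-1.

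Other families gave a scale for these shares. Homeobox genes named ceh (63 genes) had a pooled promoter summit at 7 (11.1%), close to the 10.9% of the receptors, and chemoreceptor genes, another expanded nematode family with many genes on V, at 64 of 1364 (4.69%). In replicate 1 the shares were 33.3% and 29.3%, and in replicate 2 41.3% and 26.3%. The receptors lay above the chemoreceptors in every one of these lists and above the ceh genes in replicate 1 only; no test was made of these differences.

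Because many receptor genes lie side by side, their windows are not independent. Joined where their 20 kb neighbourhoods meet, the 274 genes formed 132 loci, and 186 genes shared a locus with another receptor gene. The largest held 19 receptor genes in 104 kb of V (2192485 to 2296977), where 2 had a pooled promoter summit, 8 one in replicate 1 and 10 one in replicate 2. The next held 16 genes (V, 451451 to 541485), with 2, 11 and 8. Genes in shared loci had a pooled promoter summit at 14 of 186 (7.53%) and single genes at 16 of 88 (18.2%), against 13.3% of all genes. In replicate 1 these shares were 39.8% and 48.9%, and in replicate 2 36.6% and 43.2%. One pair of replicate summits was counted for both nhr-263 and nhr-148.

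Around the genes, within 20 kb of either end, receptor genes had a mean of 2.79 pooled summits and a median of 2, against a mean of 3.03 and a median of 3 for other genes. The replicate 1 means were 12 and 11.4, and the replicate 2 means 11.7 and 12.5, with the family again on either side of the others. No pooled summit was within 20 kb of 38 receptor genes (13.9%, against 10.3% of all genes). Of these, 25 were on V, which holds 60.9% of the family. A thresholded summit was within 20 kb of 19 (6.93%, against 11.5% of all genes). No receptor gene was without a replicate summit in this range, where counts ran from 2 to 56 in replicate 1 and from 4 to 58 in replicate 2.

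Of the densest places of the genome, 3 hold a receptor gene. nhr-28 had 45 pooled summits within 20 kb, 18 of them in the thresholded list, with 56 in replicate 1 and 58 in replicate 2, rank 10 of 19973 genes. nhr-105 had 34 (47 and 45 in the replicates), rank 20, and nhr-11 had 25 (38 and 34), rank 33. At least 25 pooled summits were around 33 genes (0.165% of all) in 4 places, and around 3 of the receptor genes (1.09%). The number 25 was chosen after the values were seen and is the count of nhr-11, so it decided that 3 of the 4 places hold a receptor gene. In windows of 35 kb, the next place by pooled summits, on II, holds none. It had 20 pooled summits against 24 in the window of nhr-11, 32 against 36 in replicate 1 and 43 against 32 in replicate 2. nhr-241 (12 pooled) and nhr-41 (11 pooled) followed at a distance, with 26 and 18 replicate summits around the former and 23 and 19 around the latter.

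These places are blocks that cover neighbours too. The block around nhr-28 ran over 38.2 kb of X (16343862 to 16382038) and 5 genes, taf-3, nhr-28, ace-1, sur-7 and let-2, with 45 pooled, 55 replicate 1 and 54 replicate 2 summits. That is 1.18 pooled summits per kb, where the genome had 0.074. The block around nhr-105 ran over 34.2 kb of IV (7026098 to 7060267) and 9 genes, with 37, 50 and 49 summits, and that around nhr-11 over 14.4 kb of IV (9063185 to 9077551) and 3 genes, with 16, 18 and 15. The median replicate 1 signal in the blocks was 19.96, 11.9 and 16.9, above the 9.62 of the whole list, and in replicate 2 it was 14.1, 9.23 and 11.1, above 6.80. The promoter summits of nhr-28, nhr-105 and nhr-11 given above are among the summits of their blocks.

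**Figure D4:**
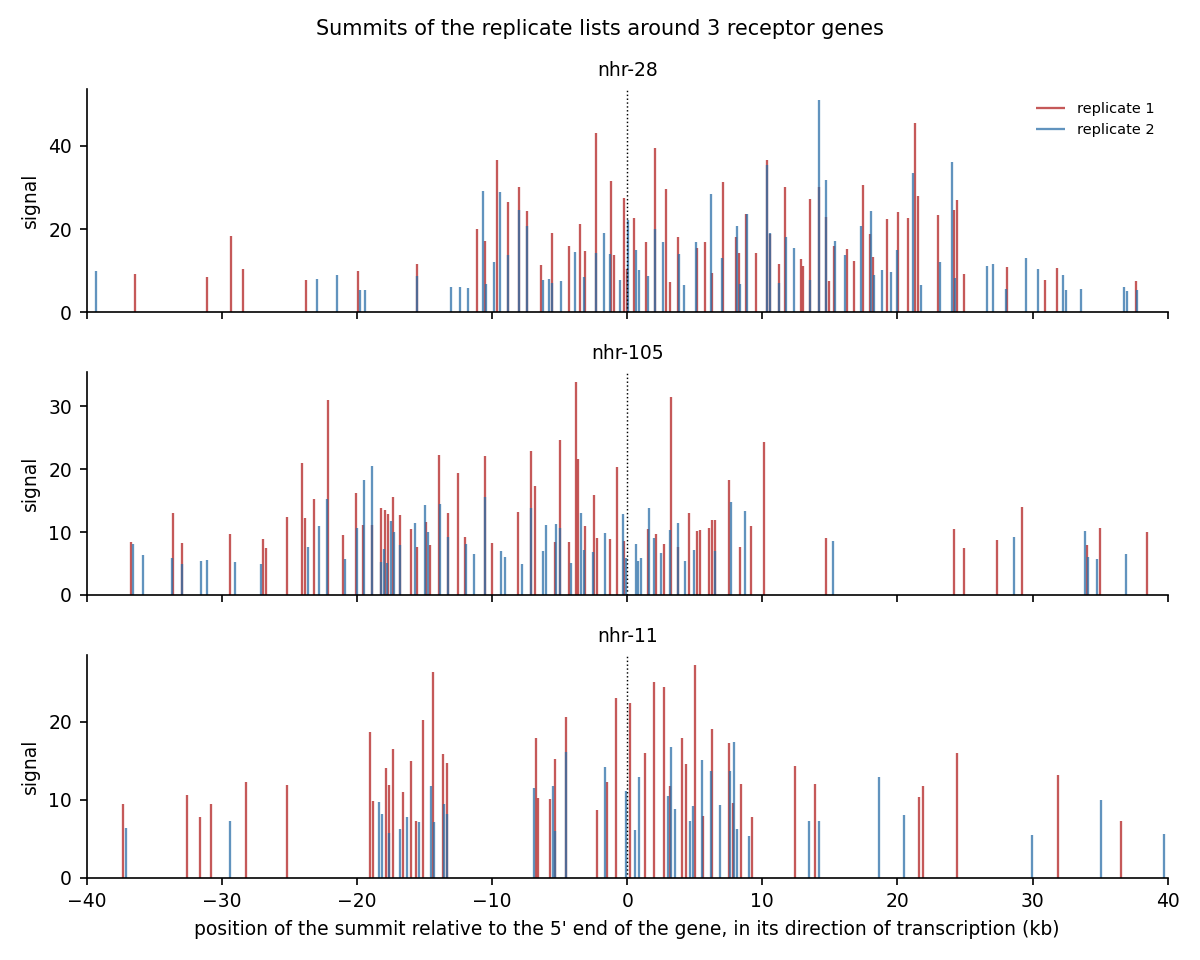
Each vertical line is 1 summit of the replicate lists (replicate 1 red, replicate 2 blue), by its position from the 5′ end of nhr-28, nhr-105 or nhr-11 (kb, in the direction of transcription) and its signal. In the top panel lines of both replicates are dense over the block that starts 11114 bp before nhr-28 and ends 22388 bp past it, and they thin out on both sides; the block of nhr-105 lies mostly upstream of the gene, and that of nhr-11 on both sides.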

How the data were processed

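ChIP-seq fragments of 150 to 350 bp were sequenced, per the labels, from 2 biological replicates of 1 group. Per the file lists deposited with each replicate, the authors mapped the reads to ce11, called peaks against a control, for each replicate and for both together, and thresholded the pooled peaks by irreproducible discovery rate. The aligner, the caller and the thresholds are not given in the texts used here, and the labels name only a possible control.

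Each deposited peak has a signal, the authors' peak height on a scale that no label or header explains, and the −log10 of a q-value from the authors' deposited column. The summit was placed with the deposited column of its distance from the peak's start. Of the pooled peaks, 99.2% are 336 bp wide. Lists on ce10 were not used, since the annotation is of WBcel235, the assembly of ce11; signal tracks and alignments were not analysed here.

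Genes and 5′ ends came from Ensembl release 115, and sequence from RefSeq's WBcel235. Summits were counted by position with Python 3.11.15, numpy 2.4.6, pandas 2.3.3 and scipy 1.17.1, in code checked on simulated data. Members, gene lists and rules were chosen with earlier results of these data known. No p-value was computed: there is 1 group, and genes are not replicates. Shares of the whole family in each list carry 95% Wilson intervals, which treat genes as independent. Named genes were those with a thresholded promoter summit, the 10 highest pooled ones, the 10 highest among those shared by both replicates, the 5 with most pooled summits within 20 kb, the conserved list, the 5 named receptors, and partner genes with a pooled summit; a few others were named after their values were seen. Alternatives were other windows, gene models, thresholds, comparison genes and single replicates. Proteins were not compared, as no protein table was used here.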

Additional observations from a re-analysis of the deposited data

How the results depend on the processing

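Differences are receptor genes minus other genes, in percentage points for promoter windows and in summits for 20 kb. For the thresholded list (-0.250, from 2 genes) the difference was -0.341 with 500 bp to either side, -0.336 by peak overlap, -0.164 without the densest stretches, -0.0374 against genes weighted to the same chromosomes and, chosen after seeing the data, -0.971 without chromosome X; it turned to 0.0136 with any transcript's 5′ end, 0.00908 with the nearest 5′ end only and 0.253 among the stronger peaks of the list (above its median). With the strongest peaks of 1 replicate in its place it was 0.551 without replicate 2 and 0.622 without replicate 1. For the pooled list (-2.35) it was -3.47 without replicate 1 and 1.60 without replicate 2. For replicate 2 (-1.32) it was 2.04 with the nearest 5′ end and 1.96 with weighting. For replicate 1 (3.11) it stayed positive, from 0.343 to 5.98.

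The 20 kb difference of the pooled list (-0.234) was -0.897 within 50 kb, 0.187 with weighting, 0.905 with joined neighbourhoods, which are longer, -0.744 without replicate 1 and 0.146 without replicate 2. Joining gave 3.62 in replicate 1 (0.552). In replicate 2 (-0.798) it gave 2.51, 50 kb gave -1.90 and weighting gave 0.315. On X, the pooled count of 10 was 4 with 500 bp to either side, 6 among the stronger peaks of the list (above its median) and 8 to 9 from a single replicate, and the replicate 1 count of 16 was 8 with 500 bp. The other 59 values kept their direction. Where a direction turned, the cause was not tested. No paired analysis was possible because there is 1 group. Read depth is unknown, so precision per peak cannot be given, and absence from a list does not show absence of binding.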

Other observations

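Some receptor genes had a high promoter summit in a replicate list without a pooled one. nhr-153 on V had 12.3 in replicate 2 and 9.34 in replicate 1, and nhr-7 on IV had 9.97 in replicate 1 and 11.4 in replicate 2, 123 bp apart. In all, 12 of the 28 receptor genes with summits of both replicates within 200 bp had no pooled promoter summit. The distance between the 2 summits ran from 2 to 180 bp over the 28 genes, with a median of 45 bp. nhr-27, with a long gene body, had 10 pooled summits within 20 kb and 38 and 35 in the replicates, in a range of 143 kb. These genes were chosen after their values were seen.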
